A study of Homo sapiens with 18 samples.

Results

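YAP, TEAD and their target genes were followed as 10 genes: the coactivators YAP1 and WWTR1 (which encodes TAZ), the DNA-binding factors TEAD1, TEAD2, TEAD3 and TEAD4, and the targets CCN1, CCN2, ANKRD1 and AMOTL2. Their members are the 1 kb windows of an ATAC-seq table that overlapped the annotated span of each gene extended by 20 kb on both sides. The table held 89428 windows in all, of which 95 belonged to these genes, 18 at their own promoters and 77 elsewhere, called distal. A further 5 windows in these spans lay at promoters of other genes and were kept apart. A window counted as promoter when it held a start of the gene or had its centre within 1000 bp upstream to 100 bp downstream of one. Counts per gene ran from 2 windows at TEAD2 to 22 at AMOTL2, and no window was shared between members. Of the 10 windows holding the canonical start, 9 were in the table, and that of TEAD2 was not analysed here. ATAC-seq reads the sites where the Tn5 transposase can insert, so a value is the openness of chromatin at a site and not the level of a transcript or protein. Values are FPKM, read counts scaled to window length and library total, which over windows of equal length is RPM.

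The data came from 6 ovarian cancer cell lines in 3 pairs, each with 3 libraries per line. A2780, which the labels describe as endometrial/ovarian, is the platinum-sensitive parent of CP70, a resistant derivative selected in culture. PEA1 and PEA2 came from 1 patient and PEO1 and PEO4 from another, all of high-grade serous origin, and in each pair the first line is sensitive and the second was derived after resistant relapse. All lines grew in RPMI-1640 with glutamine and 10% fetal bovine serum, and no drug treatment of the cultures is named in the labels. Every group is therefore 1 line, and resistance cannot be told apart from other differences between the 2 lines of a pair. Nothing in the labels says that the 3 libraries of a line came from separate cultures, so p-values measure the spread between libraries, which may be technical.

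The Hippo pathway restrains YAP and TAZ through a kinase cascade that phosphorylates them and holds them in the cytoplasm. When the cascade is quiet they enter the nucleus, bind TEAD factors, which recognise the sequence GGAATG and close variants, and switch on genes of adhesion, matrix and growth. At many enhancers TEAD sites lie near sites of AP-1, the dimer of JUN and FOS proteins. CCN1 and CCN2 encode secreted matricellular proteins, ANKRD1 encodes a nuclear and sarcomeric ankyrin repeat protein, and AMOTL2 encodes an angiomotin that binds YAP and restrains it.

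The 200 bases upstream of the canonical start of the 4 target genes are shown because these are the promoters through which YAP and TEAD are usually read. Each reads 5′ to 3′ on the strand of the gene, from the GRCh37 (hg19) genome, and capitals mark GGAATG or its reverse complement and the AP-1 motif TGANTCA, searched on both strands.
CCN2 upstream, chr6:132272513-132272712, minus strand: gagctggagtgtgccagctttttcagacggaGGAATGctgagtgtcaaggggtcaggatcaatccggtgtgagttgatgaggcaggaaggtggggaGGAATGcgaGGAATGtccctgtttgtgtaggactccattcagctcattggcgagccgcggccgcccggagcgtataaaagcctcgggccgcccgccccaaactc
ANKRD1 upstream, chr10:92680845-92681044, minus strand: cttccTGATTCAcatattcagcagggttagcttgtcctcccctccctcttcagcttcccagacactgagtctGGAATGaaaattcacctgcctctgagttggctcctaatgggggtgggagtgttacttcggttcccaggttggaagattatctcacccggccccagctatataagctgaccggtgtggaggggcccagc
CCN1 upstream, chr1:86046244-86046443, plus strand: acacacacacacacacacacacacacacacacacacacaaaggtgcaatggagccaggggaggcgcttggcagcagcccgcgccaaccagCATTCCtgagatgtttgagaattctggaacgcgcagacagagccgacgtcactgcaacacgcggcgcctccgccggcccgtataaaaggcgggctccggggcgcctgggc
AMOTL2 upstream, chr3:134093290-134093489, minus strand: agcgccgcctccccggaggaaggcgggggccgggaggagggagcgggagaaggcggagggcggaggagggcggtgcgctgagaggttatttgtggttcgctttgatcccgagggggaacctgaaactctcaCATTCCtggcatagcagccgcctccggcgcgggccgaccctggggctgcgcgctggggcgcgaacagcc
The CCN2 stretch held 3 copies of the TEAD motif and the other stretches 1 copy each, and that of ANKRD1 also held 1 AP-1 motif. Of 19503 protein-coding genes read the same way, 7.39% had at least 1 TEAD motif, 3.75% had an AP-1 motif, and only 5 genes, or 0.0256%, had 3 or more TEAD motifs. Over whole windows, 53 of the 95 member windows held a TEAD motif (55.8%), beside 45.8% of all windows in the table. The AP-1 motif was in 39 of them (41.1%, beside 38.3% of all windows) and both were in 22 (23.2%, beside 19.2%). A match of letters is a description of the sequence and not a bound site.

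Depth and scale differed between lines and touch every comparison. Implied library totals ran from 8972042 to 60495462 reads, and the median window held 11 to 47 reads per library. The share of a library that fell in the table's windows averaged 9.24% for A2780 and 13.1% for CP70, 15.2% for PEA1 and 18.9% for PEA2, and 39.9% for PEO1 and 34.4% for PEO4. The median FPKM of all promoter windows was 1.65 and 2.51 for the first pair, 2.62 and 2.27 for the second and 5.79 and 5.52 for the third. The median log2 change over all tested windows was 0.59 for CP70, 0.31 for PEA2 and -0.30 for PEO4, each against its sensitive line, and a change after median centring of each library is given below where it matters. The part of this share in the results was not tested. All 5 epithelial or Mullerian markers (EPCAM, KRT8, KRT18, CDH1, PAX8) had their start window in the table, and those windows summed from 3.78 FPKM in A2780 to 40.1 in PEO4. Of the 11 stromal, leukocyte and endothelial markers only COL1A2 had one, at 0.417 to 2.17 FPKM. Every window of the table exceeded 2 FPKM in at least 2 libraries, so a member window could be low in most lines only if it was high in another. Of the 95 member windows 18 passed that limit in 1 line alone (PEA2 for 10, PEO1 for 4, PEO4 for 3 and PEA1 for 1). The low values of the other lines there, and a difference from that line, follow from how the table was made, so such windows are given below without a test.

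Promoters of the 10 genes were most open in PEO1 for 8 genes, in PEO4 for TEAD3 and in CP70 for TEAD2. Distal windows were most open in PEO1 for 5 genes, in PEO4 for TEAD3 and CCN2, in PEA2 for ANKRD1 and AMOTL2, and in CP70 for TEAD2. These orders in FPKM move with the scale of the libraries. After median centring the highest promoter value was that of PEO1 for 3 genes (WWTR1, TEAD4, CCN1), PEO4 for TEAD3 and CCN2, PEA2 for ANKRD1 and AMOTL2, CP70 for YAP1 and TEAD2, and A2780 for TEAD1. The highest distal value was then that of PEA2 for 4 genes (ANKRD1, AMOTL2, TEAD1, TEAD4), each with windows that entered through PEA2 alone. It was that of PEO1 for YAP1 and WWTR1, PEO4 for TEAD3 and CCN2, PEA1 for CCN1 and CP70 for TEAD2. Of the 87 member windows whose mean over the 18 libraries exceeded 1 FPKM, 86 differed among the 6 lines by the F-test of limma at an adjusted p under 0.001, beside 97.9% of all windows tested. Nearly every window of the table thus differed among lines, those of other genes included.

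**Figure D1:**
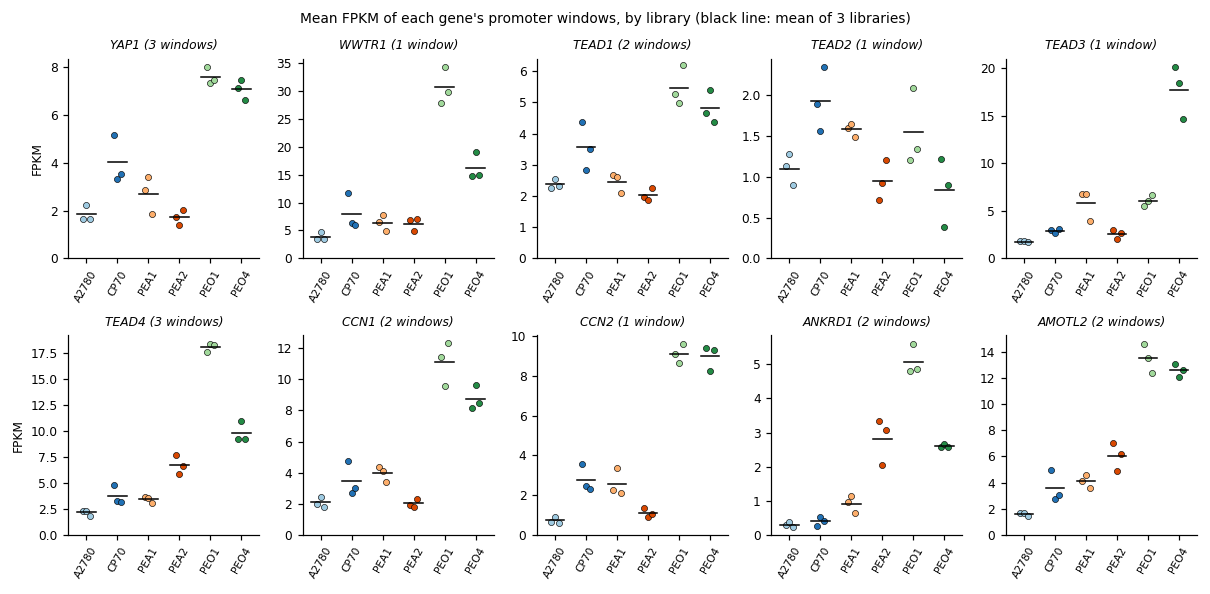
Mean FPKM (y axis, starting at 0) of the promoter windows of each gene in each of the 6 lines (x axis). Points are the 3 libraries of a line and the black line their mean. CCN2 ran from 0.727 in A2780 to 9.11 in PEO1, and TEAD3 stood at 17.8 in PEO4 against 6.06 in PEO1.

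At the promoters, 8 of the 9 genes tested were higher in CP70 than in A2780 by limma at an adjusted p under 0.05, beside 44.9% of 12552 genes, and 0 were lower, beside 1.40%. In the PEA pair 3 of 10 were higher in PEA2 (ANKRD1, TEAD4, AMOTL2), beside 18.8%, and 5 were lower (CCN2, TEAD3, CCN1, TEAD2, YAP1), beside 35.4%. In the PEO pair 1 of 10 was higher in PEO4 (TEAD3), beside 25.3%, and 5 were lower (ANKRD1, WWTR1, TEAD2, TEAD4, CCN1), beside 31.6%. The median change of the genes tested was 0.75 for CP70, -0.43 for PEA2 and -0.26 for PEO4, beside 0.58, -0.21 and -0.04 over all genes tested. After median centring 4 genes stayed higher in CP70, 3 were higher and 3 lower in PEA2, and 1 was higher and 5 lower in PEO4. Of the 8 rises in CP70, those of YAP1, CCN2 and AMOTL2 kept their call whichever library was left out. Those of TEAD2 (0.62 without A2780 replicate 3 and 0.61 without CP70 replicate 3) and TEAD4 (0.79, 0.78 and 0.64 without A2780 replicate 1, 2 or 3) did not, nor did those of WWTR1, TEAD3 and CCN1 described below.

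At the distal windows, averaged per gene, 5 of 5 genes tested were higher in CP70, beside 74.3% of 7376 genes, and 0 were lower, beside 1.45%. In the PEA pair 5 of 9 were higher in PEA2 (ANKRD1, TEAD4, AMOTL2, TEAD1, WWTR1), beside 40.6%, and 2 were lower (TEAD2, CCN1), beside 23.8%. In the PEO pair 2 of 10 were higher in PEO4 (TEAD3, CCN2), beside 22.3%, and 6 were lower (TEAD2, WWTR1, TEAD4, TEAD1, YAP1, AMOTL2), beside 43.5%. These means include windows that entered the table through 1 line alone. Through PEA2 came 5 at AMOTL2, 2 at TEAD4 and 1 each at ANKRD1, TEAD1 and WWTR1. Through PEO1 came 3 at WWTR1 and 1 at TEAD4, and through PEO4 came 2 at CCN2 and 1 at TEAD1. Calls of these genes towards the same line follow in part from how the table was made and are no support for a difference. After median centring 0 of the 5 stayed higher in CP70 by limma, 4 were higher and 4 lower in PEA2, and 2 were higher and 4 lower in PEO4. Calls lost with 1 library fewer were those of TEAD4 in CP70 (0.50 without A2780 replicate 3) and AMOTL2 in PEO4 (-0.25, -0.26 and -0.26 without PEO1 replicate 2, PEO4 replicate 1 or PEO4 replicate 3), beside those of WWTR1, CCN1 and CCN2 given below.

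**Figure D2:**
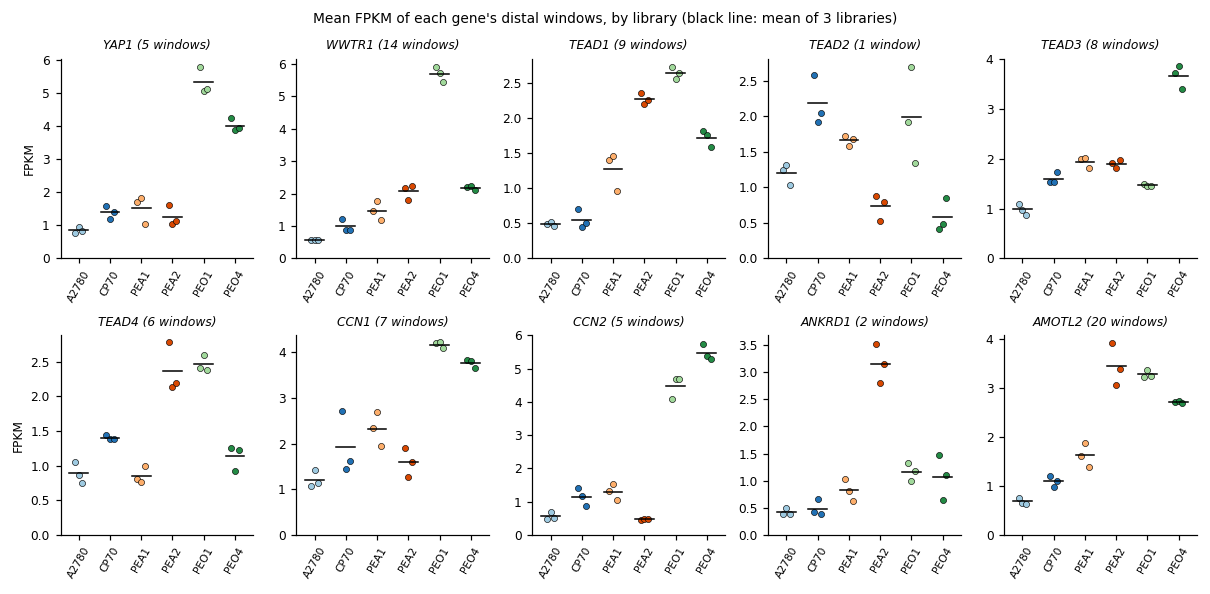
Mean FPKM (y axis, starting at 0) of the distal windows of each gene in each line (x axis). Points are the 3 libraries and the black line their mean. ANKRD1 stood at 3.16 in PEA2 against 0.82 in PEA1, and WWTR1 at 5.69 in PEO1 against 2.19 in PEO4.

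Mean promoter FPKM before centring is given from the highest line to the lowest, and neighbours in the order were compared by limma over the 18 libraries (adjusted p after each pair that did not differ). For WWTR1 the order was PEO1 (30.7), PEO4 (16.3), CP70 (7.99), PEA1 (6.38), PEA2 (6.23) and A2780 (3.88), without a difference beyond the spread between CP70 and PEA1 (0.327) and PEA1 and PEA2 (0.933). AMOTL2 ran PEO1 (13.5), PEO4 (12.6), PEA2 (6.06), PEA1 (4.13), CP70 (3.6) and A2780 (1.61), without a difference beyond the spread between PEO1 and PEO4 (0.763) and PEA1 and CP70 (0.385). CCN1 gave PEO1 (11.1), PEO4 (8.75), PEA1 (3.97), CP70 (3.49), A2780 (2.09) and PEA2 (2.03), without a difference beyond the spread between PEO1 and PEO4 (0.204), PEA1 and CP70 (0.412) and A2780 and PEA2 (0.901). In these 3 genes both PEO lines led, and in WWTR1 and AMOTL2 the parent line A2780 came last. TEAD1 stood at PEO1 (5.47), PEO4 (4.81), CP70 (3.57), PEA1 (2.46), A2780 (2.38) and PEA2 (2.03), without a difference beyond the spread between PEO1 and PEO4 (0.511), PEA1 and A2780 (0.867) and A2780 and PEA2 (0.365). TEAD4 was ordered PEO1 (18.1), PEO4 (9.82), PEA2 (6.74), CP70 (3.72), PEA1 (3.44) and A2780 (2.16), without a difference beyond the spread between CP70 and PEA1 (0.758). For TEAD3, PEO4 led the rest, in the order PEO4 (17.8), PEO1 (6.06), PEA1 (5.85), CP70 (2.92), PEA2 (2.59) and A2780 (1.76), without a difference beyond the spread between PEO1 and PEA1 (0.691) and CP70 and PEA2 (0.466). After centring the order of TEAD1 turned, and A2780 lay above the 4 patient-derived lines (PEA1 minus A2780 -0.56, adjusted p = 0.000509, PEA2 minus A2780 -0.59, adjusted p = 0.000214, PEO1 minus A2780 -0.61, adjusted p = 0.000132, and PEO4 minus A2780 -0.75, adjusted p = 7.43e-06). The TEAD2 window ran from CP70 (1.93), PEA1 (1.58), PEO1 (1.55), A2780 (1.1), PEA2 (0.946) and PEO4 (0.834), without a difference beyond the spread between CP70 and PEA1 (0.43), PEA1 and PEO1 (0.817), PEO1 and A2780 (0.096), A2780 and PEA2 (0.49) and PEA2 and PEO4 (0.338). ANKRD1 was led by PEO1, in the order PEO1 (5.08), PEA2 (2.82), PEO4 (2.61), PEA1 (0.92), CP70 (0.401) and A2780 (0.303), without a difference beyond the spread between PEA2 and PEO4 (0.763) and CP70 and A2780 (0.271). TEAD2 was low in every line, and no neighbours in its FPKM order differed, but after centring PEO1 and A2780 did (PEO1 minus A2780 -1.34, adjusted p = 0.000236), as did PEA1 and PEO1 (PEO1 minus PEA1 -1.23, adjusted p = 0.000542) and PEA2 and PEO4 (PEO4 minus PEA2 -1.62, adjusted p = 1.67e-05). In FPKM ANKRD1 stood lower in the A2780 pair than in the patient-derived lines. Both its promoter windows passed 2 FPKM in PEA2, PEO1 and PEO4 alone. That order therefore follows in part from how the table was made. After centring PEA2 lay above PEO1 for ANKRD1 (PEO1 minus PEA2 -0.55, adjusted p = 0.0479) and AMOTL2 (-0.25, adjusted p = 0.0481). At distal windows WWTR1 gave PEO1 (5.69), PEO4 (2.19), PEA2 (2.07), PEA1 (1.46), CP70 (0.985) and A2780 (0.57), without a difference beyond the spread between PEO4 and PEA2 (0.615). Distal AMOTL2 ran PEA2 (3.46), PEO1 (3.28), PEO4 (2.71), PEA1 (1.63), CP70 (1.1) and A2780 (0.69), without a difference beyond the spread between PEA2 and PEO1 (0.655) and PEO1 and PEO4 (0.106). The highest distal windows lay close to the start for YAP1, WWTR1, TEAD3, TEAD4 and CCN2. That of AMOTL2 lay 9.9 kb downstream and averaged 0.887 FPKM in A2780 against 13.4 in PEO1, with PEA1 (5.88) below PEA2 (9.15). That of CCN1, 4.1 kb upstream in DDAH1, read 3.39 in PEA1 and 1.72 in PEA2.

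YAP1 encodes the coactivator YAP, and its promoter was most open in the PEO lines in FPKM, though after centring PEO4 lay below CP70 (-0.33, adjusted p = 0.0228). The window holding its start (chromosome 11, 101980801 to 101981800) read 14.1, 12.6 and 12.6 FPKM in PEO1 and 14.1, 15.3 and 12.9 in PEO4, so the libraries overlapped (log2 change 0.11 ± 0.109 SE, adjusted p = 0.395). In CP70 it read 10.7, 6.46 and 6.66 against 2.82, 4.28 and 2.81 in A2780, a log2 change of 1.23 ± 0.308 (adjusted p = 0.000674), or 0.65 after centring. In PEA2 it read 2.75, 2.08 and 3.37 against 5.22, 6.11 and 3.31 in PEA1, a change of -0.79 ± 0.227 (adjusted p = 0.00104), although PEA1 replicate 3 lay within the PEA2 range. Over its 3 promoter windows the YAP1 value stood in the order PEO1 (7.61), PEO4 (7.08), CP70 (4.02), PEA1 (2.7), A2780 (1.84) and PEA2 (1.72), where PEO1 and PEO4 (adjusted p = 0.74) and A2780 and PEA2 (adjusted p = 0.727) did not differ beyond their spread. The fall over the 3 promoter windows in PEA2 (-0.59) lost its call without PEA1 replicate 1 (-0.54), PEA1 replicate 2 (-0.41) or PEA2 replicate 2 (-0.46). Away from the start, the intronic window 67.6 kb downstream read 0.322 FPKM in A2780, 1.8 in PEA2 and 5.56 in PEO1 on average.

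WWTR1, the gene of TAZ, lost accessibility across its whole locus in PEO4. Every one of its 13 windows tested was lower in PEO4 than in PEO1 by limma at an adjusted p under 0.05, beside 45.8% of all windows. The changes ran from -3.91 to -0.64, although 3 of its 15 windows had entered the table through PEO1 alone. The start window (chromosome 3, 149375701 to 149376700) read 27.9, 34.3 and 29.9 FPKM in PEO1, the highest canonical start window of the 9 in any line, and 14.8, 19 and 15 in PEO4 (log2 change -0.92 ± 0.104, adjusted p = 9.54e-10). Among the intronic windows the one 81.5 kb downstream of the start fell from 18.9, 17.5 and 15.8 to 4.83, 4.9 and 4.98 (-1.8 ± 0.12, adjusted p = 1.39e-15). The windows of the surrounding 5 Mb also fell, with a median change of -1.33 over 143 windows. Where the local median is said to be removed, the median log2 value of the windows of the 5 Mb was subtracted in each library before the fit, which need not equal subtracting the median change. With the local median removed the WWTR1 promoter was higher in PEO4 (0.40), and the distal value was near 0 (-0.02).

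The windows 109.4 and 117.5 kb downstream of the start of WWTR1 entered the table through PEO1 alone, so their contrast is a description. The window 109.4 kb downstream (chromosome 3, 149265901 to 149266900) read 3.04, 4.19 and 3.01 FPKM in PEO1 and 0.233, 0.048 and 0.149 in PEO4, the latter from 4, 1 and 3 reads (-3.91, and -2.59 with the local median removed). The ratio of PEO1 to PEO4 in RPM was 25.2 (95% exact interval 12.3 to 59.8, counting error only). The window 117.5 kb downstream (149257801 to 149258800) read 2.33, 2.62 and 2.12 against 0.465, 0.096 and 0.0996 (-3.12, and -1.81 with the local median removed). The window 77.9 kb downstream (149297401 to 149298400) read 4.86, 4.1 and 4.01 against 1.05, 0.864 and 0.946 (-2.07 ± 0.212, adjusted p = 9.5e-11), which passed -2 by little and stood at -1.99 without PEO1 replicate 1. The 100 bases with most motif matches in the first of these windows are shown because it had the largest change of any member window, and they held 1 TEAD and 1 AP-1 motif.
WWTR1 intron, chr3:149266131-149266230, minus strand: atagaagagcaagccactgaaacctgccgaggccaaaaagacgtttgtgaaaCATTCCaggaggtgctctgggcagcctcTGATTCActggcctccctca
The WWTR1 promoter was higher in CP70 (7.99 ± 3.25 against 3.88 ± 0.796 FPKM, SD, n = 3), a change of 0.97 that lost its call without A2780 replicate 1 or 3 (0.89 in both), and did not pass the test in PEA2 (-0.02, adjusted p = 0.935). Its distal value was higher in PEA2 by 0.48 ± 0.18, but at -0.59 with the local median removed, and without single libraries (PEA1 replicate 1 or 3, PEA2 replicate 1 or 3) it ranged from 0.34 to 0.48 and was not called.

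TEAD1 and TEAD3 are factors of wide tissue range. The TEAD1 promoter, with its start window at chromosome 11, 12695401 to 12696400, did not pass the test in any pair, at 0.55 ± 0.279 in CP70 (adjusted p = 0.0836), -0.26 ± 0.211 in PEA2 (adjusted p = 0.299) and -0.18 ± 0.139 in PEO4 (adjusted p = 0.268). Its intronic windows did change, since 8 of 8 tested were higher in PEA2 and 7 of 9 lower in PEO4, beside 43.0% and 45.8% of all windows. Those 18.8 and 19.7 kb downstream passed 2 FPKM in PEA2 and PEO1 alone, and that at 153.8 kb in CP70 and PEO1 alone. That at 128.6 kb passed it in PEA2 alone and that at 72.8 kb in PEO4 alone. Calls of these windows towards such a line follow in part from how the table was made. The intronic windows went with their surroundings, as the distal value of 0.81 in PEA2 and -0.60 in PEO4 stood at 0.06 and -0.08 with the local median removed (median changes 0.65 and -0.44). The most open of them (chromosome 11, 12744901 to 12745900, 49.4 kb downstream of the start) read 1.38, 1.68 and 0.815 FPKM in PEA1, 3.08, 3.24 and 3.15 in PEA2, then 4.15, 4.45 and 4.12 in PEO1 against 3.14, 2.93 and 2.44 in PEO4. In A2780 and CP70 it stood at 0.252 and 0.262 on average. The 4 patient-derived lines thus lay above the A2780 pair here in every library. The window passed 2 FPKM in PEA2, PEO1 and PEO4 alone. The low values of A2780 and CP70 there follow in part from how the table was made.

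TEAD3 opened in PEO4 and closed in PEA2. Its start window (chromosome 6, 35464501 to 35465500) read 5.46, 6.02 and 6.69 FPKM in PEO1 and 20.1, 18.5 and 14.7 in PEO4 (1.53 ± 0.124, adjusted p = 2.89e-13). All 7 TEAD3 windows tested were higher in PEO4, by 0.79 to 1.76, beside 21.9% of all windows, while the 147 windows of the 5 Mb around them had a median change of 0.97. With the local median of each library removed the promoter stayed higher by 0.74. In PEA2 the start window read 3.02, 2.08 and 2.66 against 6.79, 6.82 and 3.93 in PEA1 (-1.12 ± 0.227, adjusted p = 2.81e-06). The distal windows split in that pair, with 2 higher and 4 lower of 8, beside 43.0% and 21.4% of all windows. In CP70 the promoter was higher by 0.69, a call lost without A2780 replicate 1 (0.70), A2780 replicate 2 (0.72), A2780 replicate 3 (0.66) or CP70 replicate 3 (0.65), each from 2 libraries against 3, and at 0.11 after centring.

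Before the local median was removed, TEAD4 moved in opposite directions in the PEA and PEO pairs, and TEAD2 fell in both. The TEAD4 start window (chromosome 12, 3068101 to 3069100) read 5.22, 5.05 and 3.74 FPKM in PEA1 and 9.67, 7.28 and 7.54 in PEA2 (0.8 ± 0.231, adjusted p = 0.0012), and 26.9, 27.9 and 26 in PEO1 against 14.8, 17.9 and 15.1 in PEO4 (-0.76 ± 0.0987, adjusted p = 1.94e-08). The rise in PEA2 went with its surroundings, as the median of 182 windows in its 5 Mb was 1.42, and with the local median removed the promoter was lower in PEA2 (-0.53) and the distal value near 0 (-0.10). In PEO4, where the median change of the 5 Mb was -0.46, the promoter then stood at -0.47 and the distal value at -0.66. By that measure the directions of the pairs were no longer opposite. The distal window 14.4 kb upstream (3053701 to 3054700) read 0.513, 0.405 and 0.432 in PEA1 and 2.25, 2.25 and 2 in PEA2 (2.05 ± 0.281, adjusted p = 2.11e-12, and 1.99 without PEA1 replicate 2). The intronic window 39.6 kb downstream (3107701 to 3108700) read 6.07, 4.54 and 5.46 in PEO1 and 1.45, 0.672 and 1.74 in PEO4 (-2.06, -1.96 without PEO1 replicate 1 and -1.68 without PEO4 replicate 2), and it entered the table through PEO1 alone. Its 100 bases with most matches, shown because this was the TEAD4 window with the largest fall, held 1 TEAD and 1 AP-1 motif.
TEAD4 intron, chr12:3108231-3108330, plus strand: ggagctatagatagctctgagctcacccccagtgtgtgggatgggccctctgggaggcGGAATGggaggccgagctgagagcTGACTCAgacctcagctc
TEAD2 had 1 promoter window (chromosome 19, 49864501 to 49865500), 0.7 kb inside the gene, and 1 distal window that lies in the neighbouring gene DKKL1. The distal window read 1.73, 1.59 and 1.68 FPKM in PEA1 against 0.879, 0.52 and 0.799 in PEA2 (-1.11 ± 0.272, adjusted p = 0.000115), and 1.92, 2.7 and 1.34 in PEO1 against 0.407, 0.48 and 0.847 in PEO4 (-1.62 ± 0.322, adjusted p = 3.34e-05). In the PEA pair 296 windows of the surrounding 5 Mb had a median change of -1.12, and in the PEO pair 355 had one of 0.40, so only the fall in PEO4 went against its surroundings. The TEAD2 promoter value was lower in PEA2 by -0.71 (-0.54 and uncalled without PEA2 replicate 1, 0.32 with the local median removed) and in PEO4 by -0.90 (uncalled at -0.68 without PEO1 replicate 2 and at -0.49 without PEO4 replicate 2).

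CCN2, the gene of connective tissue growth factor, moved in opposite directions in CP70 and PEA2. Its start window (chromosome 6, 132272101 to 132273100), which includes the upstream stretch with 3 TEAD motifs shown above, read 0.645, 0.924 and 0.612 FPKM in A2780 and 3.56, 2.45 and 2.3 in CP70. It read 2.24, 3.36 and 2.11 in PEA1 and 1.37, 0.925 and 1.06 in PEA2. PEO1 gave 9.11, 8.64 and 9.59 and PEO4 gave 9.42, 8.25 and 9.32. It was thus higher in every CP70 library than in every A2780 library and lower in every PEA2 library than in every PEA1 library, with both PEO lines above in FPKM. On the log2 scale PEO1 and PEO4 lay above CP70 by 1.71 and 1.69, or by 0.51 and 0.53 after centring. The log2 change was 1.79 ± 0.253 in CP70 (adjusted p = 1.65e-10), -1.12 ± 0.242 in PEA2 (adjusted p = 1.22e-05) and -0.02 ± 0.12 in PEO4 (adjusted p = 0.897). After centring the first of these was 1.21. The 45 windows tested in its 5 Mb had a median change of 1.39 in CP70, and with the local median of each library removed the start window stood at 0.41. In the order of lines CP70 and PEA1 did not differ beyond their spread (adjusted p = 0.697), nor did PEO1 and PEO4 (adjusted p = 0.957).

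The body of CCN2 closed in PEA2 by more than its promoter. The window 0.8 kb downstream of the start (132271201 to 132272200) read 3.46, 4.36 and 2.73 FPKM in PEA1 and 0.714, 0.289 and 0.444 in PEA2, from 13, 5 and 10 reads (-2.68 ± 0.257, adjusted p = 6.78e-24). The next window (132270301 to 132271300, which shares 100 bases with it) read 2.02, 1.93 and 1.34 against 0.275, 0.462 and 0.355 (-2.01 ± 0.307, adjusted p = 3.61e-10, and -1.86 without PEA2 replicate 1). The median change of the 5 Mb was -0.64, and with the local median of each library removed the first stood at -2.23 and the second at -1.56. These 2 windows read 9.81 and 5.17 in PEO1 and 10.7 and 5.09 in PEO4 on average, with overlapping libraries.

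A pair of windows downstream of CCN2 was above 2 FPKM in PEO4 alone and entered the table through that line, so its low values in the others follow from the filter. The window 13.4 kb downstream of the start (132258601 to 132259600, between genes) read 1.32, 0.873 and 1.11 FPKM in PEO1 and 6.22, 5.81 and 4.83 in PEO4 (2.26). Its neighbour 14.3 kb downstream (132257701 to 132258700) read 0.405, 0.524 and 0.223, from 4, 6 and 2 reads, against 3.02, 2.21 and 2.34 (2.48). The ratio of PEO4 to PEO1 in RPM was 6.3 for the neighbour (95% exact interval 3.5 to 12.5, counting error only). With the local median of each library removed they stood at 2.85 and 3.07. In the other 4 lines these windows averaged 0.134 to 0.567 FPKM. The first held 4 TEAD motifs, the most of any CCN2 window, and its 100 bases with most matches are shown because 3 of them lie there.
CCN2 downstream, chr6:132259161-132259260, minus strand: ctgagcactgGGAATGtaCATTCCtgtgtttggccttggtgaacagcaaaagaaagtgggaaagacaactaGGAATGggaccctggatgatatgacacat
Upstream, the window 3.7 kb before the start went the other way, from 6.27, 6.19 and 5.46 in PEO1 to 3.2, 3.22 and 3.79 in PEO4 (-0.80 ± 0.153, adjusted p = 2.11e-05). The mean of its 5 distal windows was higher in PEO4 by 0.28, a call lost without PEO1 replicate 1 (0.22) or PEO4 replicate 1 (0.25). That mean includes the 2 windows that entered through PEO4 alone, so the value is a description. Window by window, no other distal window of CCN2 was higher in PEO4, 1 was lower and 2 did not pass the test.

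**Figure D3:**
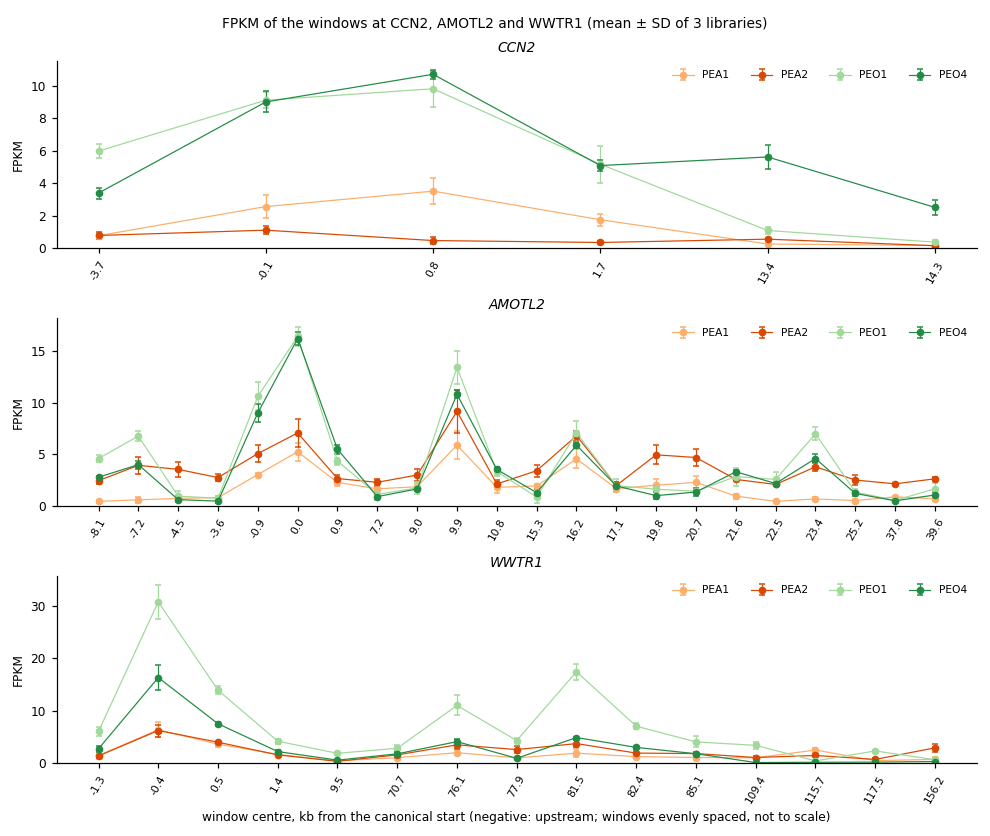
FPKM (y axis) of each window of CCN2, AMOTL2 and WWTR1 in the 4 patient-derived lines, ordered by the distance of the window centre from the canonical start in kb (x axis, not to scale). Points are means of 3 libraries and bars their SD. At CCN2 the windows 13.4 and 14.3 kb downstream stand at 5.62 and 2.52 in PEO4, and at WWTR1 PEO1 lies above PEO4 at every window tested.

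CCN1 lost accessibility in PEA2 at its start and along its body. The start window (chromosome 1, 86046301 to 86047300) read 5.51, 5.51 and 4.51 FPKM in PEA1 and 2.2, 1.79 and 2.4 in PEA2 (-1.25 ± 0.228, adjusted p = 1.67e-07). The windows 1.3 and 2.2 kb downstream fell by 1.58 ± 0.252 (adjusted p = 1.98e-09) and 1.77 ± 0.252 (adjusted p = 1.52e-11). The median change of 109 windows in its 5 Mb was -0.02, so these falls stood out from their surroundings. The distal window 4 kb downstream held 4 TEAD motifs and averaged 2.32 in PEA1 and 2.77 in PEA2. In the PEO pair the start window read 13.8, 13.2 and 15.9 in PEO1 and 11.6, 13.1 and 12.3 in PEO4 (-0.21 ± 0.11, adjusted p = 0.0915), and over both promoter windows the fall of -0.33 lost its call without PEO1 replicate 3 (-0.26) or PEO4 replicate 1 (-0.29) and turned to 0.30 with the local median removed. In CP70 the promoter was higher by 0.68 ± 0.271 (adjusted p = 0.0319), which fell to 0.10 after centring and was not called without A2780 replicate 1 (0.66), A2780 replicate 3 (0.59) or CP70 replicate 1 (0.44). The distal value, higher in CP70 by 0.60 but at -0.03 after centring, was uncalled without A2780 replicate 1 (0.52) or CP70 replicate 1 (0.33). Its change of -0.52 in PEA2 was uncalled without PEA1 replicate 1 (-0.51), PEA1 replicate 2 (-0.41) or PEA2 replicate 2 (-0.38).

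ANKRD1 opened in PEA2 and partly closed in PEO4. Its start window (chromosome 10, 92680201 to 92681200) read 1.19, 1.43 and 0.767 FPKM in PEA1, 4.01, 2.49 and 3.73 in PEA2, then 6.07, 6.89 and 5.46 in PEO1 against 3.43, 3.12 and 2.94 in PEO4. The libraries of each pair did not overlap, and the changes were 1.52 ± 0.237 (adjusted p = 6.74e-10) and -0.93 ± 0.155 (adjusted p = 2.22e-06). In A2780 and CP70 the window averaged 0.322 and 0.539, under the filter of the test. The distal windows 9.8 and 10.7 kb upstream were higher in PEA2 as well, both by 1.84, though the second entered the table through PEA2 alone. The first (92690101 to 92691100), with 3 TEAD motifs, read 1.22, 1.06 and 0.719 in PEA1 and 4.01, 3.41 and 3.9 in PEA2, and the second read 0.833, 0.561 and 0.527 against 3.02, 2.2 and 2.4. The second stood at 0.195 in PEO1 and 0.414 in PEO4 on average. With the local median removed the promoter value kept its sign and its call, at 1.01 in PEA2 and -0.85 in PEO4. The distal value in PEA2, which includes the window that entered through PEA2 alone, stood at 1.33. In the distal order PEA2 (3.16) lay above PEO1 (1.16), given without a test because that window is part of the mean. PEO1 and PEO4 (adjusted p = 0.574) and PEO4 and PEA1 (adjusted p = 0.224) did not differ beyond their spread by limma.

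AMOTL2 had the most windows, and 17 of its 22 were higher in PEA2, by up to 2.62, beside 43.0% of all windows. Of the 22, 5 had entered the table through PEA2 alone. The largest change was in the window 7.2 kb upstream of the start (chromosome 3, 134100001 to 134101000), which read 0.32, 0.841 and 0.575 FPKM in PEA1 and 4.73, 3.12 and 3.9 in PEA2 (2.62 ± 0.248, adjusted p = 1.38e-24). The window 23.4 kb downstream (134069401 to 134070400) read 0.513, 0.779 and 0.719 against 4.07, 3.99 and 3.28 (2.34 ± 0.244, adjusted p = 1.64e-20). The window 8.1 kb upstream rose by 2.26 ± 0.277 (adjusted p = 2.88e-15). The window 4.5 kb upstream (134097301 to 134098300) read 0.673, 0.779 and 0.719 against 4.07, 2.72 and 3.82 (2.12), and it entered the table through PEA2 alone, as did the window 25.2 kb downstream. It is shown for its 2 AP-1 motifs beside a TEAD motif.
AMOTL2 upstream, chr3:134097751-134097850, minus strand: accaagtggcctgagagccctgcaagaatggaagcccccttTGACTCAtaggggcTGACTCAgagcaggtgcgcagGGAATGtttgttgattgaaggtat
The windows 25.2 and 22.5 kb downstream passed a change of 2 by little, at 2.09 (1.93 without PEA1 replicate 1 and 1.95 without PEA2 replicate 1) and 2.03 (1.88 without PEA1 replicate 3). The start window (134092801 to 134093800) read 5.29, 6.07 and 4.32 in PEA1 and 8.19, 5.55 and 7.45 in PEA2, with overlapping libraries (0.42 ± 0.231, adjusted p = 0.0965). Over both promoter windows the rise of 0.54 in PEA2 was uncalled without PEA1 replicate 1 (0.54), PEA2 replicate 1 (0.42) or PEA2 replicate 3 (0.51). The 188 windows of its 5 Mb had a median change of 1.36 in PEA2. With the local median of each library removed the promoter value stood at -0.90 and the distal value at -0.38, while the windows 7.2 kb upstream and 23.4 kb downstream stayed higher, at 1.19 and 0.91. In PEO4 the promoter value did not pass the test (-0.10, adjusted p = 0.441), and in CP70 it rose from 1.69, 1.71 and 1.43 to 5, 2.75 and 3.06 (1.07 ± 0.262, adjusted p = 0.000743).

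Counted window by window, the members gave 34 of 44 tested higher in CP70 at an adjusted p under 0.05 (77.3%), beside 47.5% of 37128 windows, and 0 lower, beside 2.29%. At an unadjusted p under 0.05 limma gave 36 higher and 0 lower, and the quasi-likelihood test of edgeR gave 35 higher and 0 lower after adjustment. After median centring the 34 became 4, and without A2780 replicate 3 it was 10. In the PEA pair 48 of 84 were higher in PEA2 (57.1%, beside 43.0% of 66103) and 19 lower (22.6%, beside 21.4%). In the PEO pair 10 of 86 were higher in PEO4 (11.6%, beside 21.9% of 77654) and 41 lower (47.7%, beside 45.8%). The promoter and distal windows of the PEA pair differed in their median, at -0.07 over 18 promoter and 0.66 over 66 distal windows tested.
At the study's own thresholds, a log2 change beyond 2 with an adjusted p under 0.001, 0 member windows were called in the A2780 pair by limma or edgeR, beside 0.797% of all windows. In the PEA pair 9 were called (10.7%, beside 12.7%), 6 of AMOTL2 and 1 of TEAD4 higher and 2 of CCN2 lower. In the PEO pair 6 were called (6.98%, beside 8.49%), 2 of CCN2 higher, and 3 of WWTR1 and 1 of TEAD4 lower. These shares lay near or below those of all windows. All 15 were distal, 11 held a TEAD motif, 8 an AP-1 motif, 6 both and 2 neither. Of the 15, 7 passed 2 FPKM in 1 line alone (2 of AMOTL2, 2 of CCN2, 2 of WWTR1 and 1 of TEAD4), so these counts are no support for a difference. With the local median removed the 15 kept their sign, and 4 stayed beyond 2, the CCN2 window 0.8 kb downstream in PEA2, both downstream windows of CCN2 in PEO4 and the WWTR1 window 109.4 kb downstream in PEO4, of which the last 3 are among those 7.

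**Figure D4:**
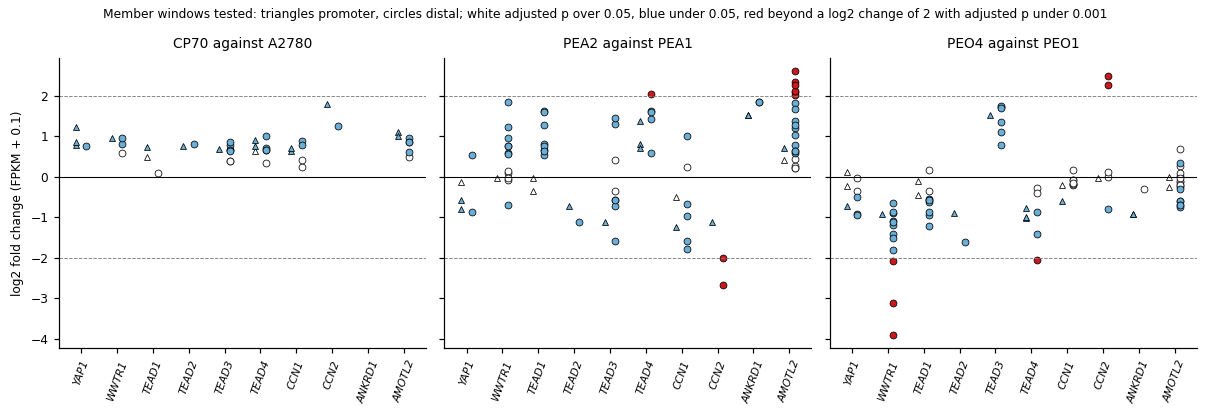
Log2 fold change (y axis, FPKM + 0.1) of every member window tested, by gene (x axis) and pair (panel). Triangles are promoter and circles distal windows, blue passed an adjusted p of 0.05, red also a change of 2 at an adjusted p of 0.001, and white did not pass. The A2780 pair has 34 windows above 0 that passed and no red point.

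The changes of several genes followed the windows around them. In the PEA pair AMOTL2 and TEAD4 lay in 5 Mb with median changes of 1.36 and 1.42 and TEAD2 in one of -1.12, and in the PEO pair WWTR1 lay in one of -1.33 and TEAD3 in one of 0.97. The values of ANKRD1 in the PEA pair (1.52 at the promoter and 1.84 distal) stood apart from a local median of 0.35, and those of TEAD2 in the PEO pair (-0.90 and -1.62) from one of 0.40. The distal value of ANKRD1 includes 1 window that entered the table through PEA2 alone. The copy number of these regions was not analysed here, so a gain or loss of DNA and a change of openness cannot be told apart from these values. The local median also mixes promoter and distal windows, which moved differently in the PEA pair.

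**Figure D5:**
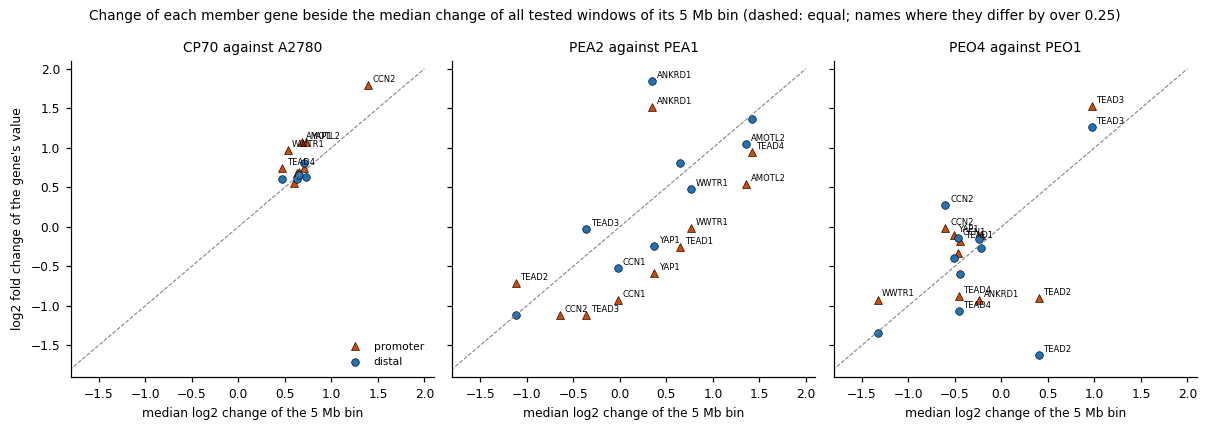
Log2 fold change of the promoter (triangles) and distal (circles) value of each gene (y axis) against the median log2 change of all tested windows of its 5 Mb (x axis), by pair. Points on the dashed line changed as much as their surroundings. ANKRD1 lies above the line in the PEA pair and TEAD2 below it in the PEO pair.

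The kinase cascade above YAP and its cofactors were read from a list of 20 genes. The promoter window of NF2 read 0, 0.175 and 0 FPKM in PEO1 and 0 in each PEO4 library, so it was not tested in that pair. It averaged 3.34 in A2780, 4.52 in CP70, 3.75 in PEA1 and 3.96 in PEA2. The distal value of NF2 was 2.05 in PEO1 and 1.54 in PEO4. The cause of the missing promoter signal was not tested. At promoters 11 of 18 tested were higher and 0 lower in CP70, 3 higher and 7 lower of 19 in PEA2, and 1 higher and 11 lower of 19 in PEO4, with medians of 0.67, -0.22 and -0.31, beside 0.58, -0.21 and -0.04 over all genes (44.9% of these were higher and 1.40% lower for CP70, 18.8% higher and 35.4% lower for PEA2, and 25.3% higher with 31.6% lower for PEO4). After centring the first of these became 1 higher and 2 lower. LATS1, the kinase that phosphorylates YAP, rose in CP70 at its promoter (0.899 to 2.84 FPKM, 1.37 ± 0.24, adjusted p = 9.09e-07) and distal windows (1.67) and fell in PEA2 (-0.95 and -0.70). SAV1, the scaffold of the kinases, rose at its promoter in CP70 by 0.95 and at its distal windows in PEA2 by 1.05. TAOK1, an upstream kinase, fell in PEA2 (-0.98 and -0.70), where AMOTL1 (0.78, but -0.23 with the local median removed, and 1.52) and the promoter of VGLL3 (0.91) rose. The TEAD cofactors VGLL1 and VGLL2 had the largest falls in PEO4. The VGLL1 promoter window averaged 5.64 FPKM in PEO1 and 1.2 in PEO4 (-2.15). It exceeded 2 FPKM in PEO1 alone, so this contrast follows from how the table was made and is given without a test. VGLL2 fell from 6.1 to 2.61 FPKM at its promoter in PEO4 (-1.20 ± 0.151, adjusted p = 2.37e-09). The kinase STK4 was the promoter that rose there (0.71), and at distal windows, with 1 higher and 13 lower of 20, it was MOB1A (0.36). The only distal window of VGLL1 averaged 4.27 FPKM in PEO1 and exceeded 2 FPKM in PEO1 alone, so its fall follows from how the table was made. Entry through 1 line alone was not counted for the other genes of this list, so its counts are descriptions. In CP70 the distal windows gave 5 higher and 0 lower of 7, VGLL4 among them (0.99), and in PEA2 6 higher and 6 lower of 13. The shares of all genes at distal windows were 74.3% higher with 1.45% lower for CP70, 40.6% with 23.8% for PEA2 and 22.3% with 43.5% for PEO4. LATS1 in CP70 with the local median removed stood at 0.02 at its promoter and 0.32 at its distal windows, VGLL1 in PEO4 at -0.48 and 0.31, and the VGLL2 promoter there at -0.40.

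Other YAP and TEAD targets formed a list of 18 genes. As with the list above, windows that entered the table through 1 line alone were not counted, so the counts are descriptions. At promoters 8 of 17 tested were higher and 2 lower in CP70, 1 higher and 9 lower of 18 in PEA2, and 1 higher and 8 lower of 18 in PEO4, with medians of 0.52, -0.52 and -0.22, beside the same medians and shares of all genes. After centring these counts became 2 higher and 4 lower in CP70 (median -0.06), 4 higher and 9 lower in PEA2, and 1 higher and 8 lower in PEO4. NT5E, an ectonucleotidase, rose in PEA2 at its promoter (3.71 to 7.75 FPKM, 1.07 ± 0.225, adjusted p = 1.03e-05) and distal windows (1.99), but stood at -0.88 and 0.04 with the local median removed. In the same line DOCK5, an exchange factor of RAC, fell from 6.79 to 2.28 (-1.55 ± 0.216, adjusted p = 1.67e-11), and AXL, a receptor tyrosine kinase, from 3.55 to 1.57 (-1.12 ± 0.211, adjusted p = 7.31e-07). DOCK5 rose in CP70 (1.07, or 0.49 after centring), as did ARHGEF17 (0.99, or 0.40), while the ligand gene TGFB2 (-1.09) and CCDC80 (-0.81) were the promoters that fell there. In PEO4 the kinase gene NUAK2 fell from 5.97 to 1.42 (-1.99 ± 0.175, adjusted p = 9.73e-14) and TGFB2 from 4.02 to 1.56 (-1.32), and ARHGEF17 rose (0.34). At distal windows 2 of 4 were higher and 0 lower in CP70 (ARHGEF17 at 0.65, or -0.09 with the local median removed, and GADD45A at 0.46, or -0.17 after centring), 7 higher and 3 lower of 17 in PEA2 (MYOF at 1.15 among those higher, AXL at -1.10 and ARHGEF17 at -0.57 among those lower), and 1 higher and 12 lower of 18 in PEO4 (ARHGEF17 at 0.39 higher, NUAK2 at -1.52 and FJX1 at -1.35 lowest), beside the shares of all genes at distal windows given above. After centring the distal counts became 0 higher and 0 lower in CP70, 6 higher and 6 lower in PEA2, and 2 higher and 10 lower in PEO4. AXL in PEA2 with the local median removed stood at -0.09 at its promoter and -0.06 at its distal windows, the DOCK5 promoter at -0.76 there and 0.31 in CP70, that of TGFB2 at -0.19 in CP70 and -0.61 in PEO4, and that of NUAK2 at -1.04 in PEO4.

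Over the 18 libraries, the start windows whose log2 values followed that of YAP1 most closely among 13531 genes were those of BCLAF1 (Pearson r = 0.987), GINM1 (0.984) and PPIL4 (0.983). Those closest to CCN2 were TLN1 (0.99), CREB3 (0.99) and VPS13C (0.986). These correlations are descriptions, since the 18 libraries are 6 lines of 3 and share the scale that separates the PEO lines from the rest.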

How the data were processed

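ATAC-seq was measured in 6 lines with 3 libraries each, grouped by the line and replicate number in the labels. The authors mapped read pairs to hg19 (Bowtie2, uniquely mapped pairs), marked duplicates with Picard, discarded mitochondrial and blacklist reads, counted reads in 1 kb windows with featureCounts and deposited FPKM values made with edgeR, which over equal windows equal RPM. Tool versions and a shift of read ends for the transposase were not given in the sources used here. Unique alignment leaves repeats without signal, and scaling to the library total carries over differences in the share of reads outside open chromatin. The window grid matched GRCh37 at 23 of 23 chromosome steps, and starts and spans came from GENCODE protein-coding genes on that build. In all 18 libraries 100% of values were whole reads, which gave totals of 8972042 to 60495462, and since no molecular identifiers are named, intervals cover counting error only.

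Values were transformed to log2(FPKM + 0.1), which understates the change of low windows. Windows whose mean over the compared libraries exceeded 1 FPKM were tested with limma 3.58.1 (mean-variance trend, R 4.3.3), with Benjamini-Hochberg adjustment over all windows. The study used voom on counts. Per-gene values were means of promoter or distal windows, fitted over all protein-coding genes, and the 15 pairs of lines were compared with adjustment over genes within each pair. The fits were tested on simulated data. Alternatives were a pseudocount of 1, other filters, an upper depth limit, median centring, quantile normalization, removal of the median of each 5 Mb, the replicate number as a block, edgeR 4.0.16 on whole reads, flanks of 0 and 50 kb, other gene-level window sets and leaving out each library. Members, lists and tests were chosen with earlier results of these data known. Named were all 10 genes, their start window, their most open distal window, up to 3 windows past the study's thresholds per pair and direction, and the 2 largest changes per list, pair and direction. Other windows named were chosen after their values were seen.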

Additional observations from a re-analysis of the deposited data

Results flagged for a closer look

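Changes that differed between pairs by more than 2 on the log2 scale with an adjusted p under 0.001 (limma, difference of changes over the 12 libraries of 2 pairs) are listed here. Between the PEA and PEO pairs, the ANKRD1 promoter (1.52 and -0.93) differed by 2.45 ± 0.28 and the TEAD3 promoter (-1.12 and 1.53) by -2.65 ± 0.247, beside 8.25% of 13906 genes past the same limits. At distal windows ANKRD1 (1.84 and -0.16) differed by 2.00 and TEAD4 (1.37 and -1.06) by 2.43, beside 16.7% of 14798 genes. Of these windows, 1 at ANKRD1 and 2 at TEAD4 entered the table through PEA2 alone, and 1 at TEAD4 through PEO1 alone. Both distal differences follow in part from that and are descriptions. Between the A2780 and PEA pairs, the CCN2 promoter (1.79 and -1.12) differed by 2.91 ± 0.323, beside 6.34% of 13519 genes. Between the A2780 and PEO pairs, the distal values of TEAD2 (0.81 and -1.62) and WWTR1 (-1.34 in PEO4, under the filter in the A2780 pair alone) differed by 2.44 ± 0.339 and 2.02, beside 3.14% of 13801 genes. The WWTR1 value includes 3 windows that entered the table through PEO1 alone, so its difference is a description as well. The local medians given in the report move with the TEAD3, TEAD4, WWTR1 and CCN2 values, and their part was not tested.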

How the results depend on the processing

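The 121 single log2 changes (per-gene values and named windows) gave 1716 values under the alternatives, of which 1456 kept direction and side of the threshold, 197 lost the call, 24 gained it and 39 changed sign. edgeR on whole reads, the upper depth limit and the means above 5 FPKM changed no single call among those they could give. With the median of each 5 Mb removed, the sign changed for the promoter values of YAP1 (PEO4, 0.39), WWTR1 (PEO4, 0.40), TEAD1 (PEO4, 0.33), TEAD2 (PEA2, 0.32), TEAD4 (PEA2, -0.53), CCN1 (CP70, -0.06), CCN1 (PEO4, 0.30), CCN2 (PEO4, 0.57), AMOTL2 (PEA2, -0.90), for the distal values of YAP1 (PEO4, 0.09), WWTR1 (PEA2, -0.59), TEAD3 (CP70, -0.04), TEAD4 (PEA2, -0.10), CCN1 (CP70, -0.15), CCN1 (PEO4, 0.49), AMOTL2 (PEA2, -0.38), AMOTL2 (PEO4, 0.04), and for the AMOTL2 window at 9.9 kb (PEA2, -0.80), AMOTL2 window at 0.0 kb (PEA2, -1.01), AMOTL2 window at 0.0 kb (PEO4, 0.30), CCN1 window at -4.1 kb (PEO4, 0.43), CCN1 window at 0.4 kb (CP70, -0.03), CCN1 window at 0.4 kb (PEO4, 0.43), CCN2 window at 0.8 kb (CP70, -0.12), CCN2 window at -0.1 kb (PEO4, 0.57), TEAD1 window at -0.1 kb (PEO4, 0.41), TEAD4 window at 0.0 kb (PEA2, -0.67), TEAD4 window at 1.8 kb (PEA2, -0.89), WWTR1 window at 0.5 kb (PEA2, -0.92), WWTR1 window at 0.5 kb (PEO4, 0.44), WWTR1 window at -0.4 kb (PEO4, 0.40), YAP1 window at 1.0 kb (PEO4, 0.46), where distances count from the start. Median centring changed the sign of TEAD4 distal (CP70, -0.02), CCN1 distal (CP70, -0.03), AMOTL2 window at 9.9 kb (PEO4, 0.04), AMOTL2 window at 0.0 kb (PEO4, 0.33), CCN2 window at -0.1 kb (PEO4, 0.32), YAP1 window at 1.0 kb (PEO4, 0.31), and quantile normalization that of CCN1 distal (CP70, -0.04). The cause was not tested.

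Above a mean of 5 FPKM the test held 2 member windows of the A2780 pair, 5 of the PEA pair and 26 of the PEO pair, so the lower counts there come from fewer windows. Counts of windows higher in CP70 (34) became 2 above 5 FPKM, 4 with median centring, 5 with quantile normalization and 8 with the 5 Mb median removed. Windows past the study's thresholds in the PEA pair (9) became 0 with a pseudocount of 1, 0 above 5 FPKM, 4 with centring, 1 with the 5 Mb median removed and 2 with the gene span alone (0 kb flank). Those higher in PEA2 (48) became 3 above 5 FPKM, 19 with the 5 Mb median removed and 29 in the span alone, and those lower (19) became 0 above 5 FPKM and 42 with the 5 Mb median removed. In the PEO pair, windows past the thresholds (6) became 0 with a pseudocount of 1, 0 above 5 FPKM and 3 with the 5 Mb median removed, those higher in PEO4 (10) became 2 above 5 FPKM, 19 with centring, 29 with the 5 Mb median removed and 5 in the span alone, and those lower (41) became 12 above 5 FPKM, 17 with the 5 Mb median removed and 62 with a 50 kb flank. Windows differing among lines (86) became 13 above 5 FPKM, where fewer were tested. Over the 3 pairs, per-gene calls at promoters (22) became 7 above 5 FPKM, those at distal windows (20) became 10 with the 5 Mb median removed, those of the Hippo list (64) became 14 and those of the target list (54) became 10 above 5 FPKM. The alternatives for the 2 lists were chosen after seeing the data.

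Leaving out each library gave 10 to 33 windows higher and 0 lower in CP70 (the 10 without A2780 replicate 3), 7 to 10 past the thresholds, 41 to 49 higher and 14 to 21 lower in the PEA pair, 4 to 6, 9 to 11 and 37 to 39 in the PEO pair, 84 to 87 differing among lines, 17 to 22 per-gene calls at promoters, 18 to 20 at distal windows, 54 to 66 in the Hippo list and 48 to 56 in the target list. Deviations of same-numbered libraries correlated at -0.412 to 0.0446 across windows, so the numbers do not pair the samples. With the replicate block, counts were 0, 30 and 0 in the A2780 pair (past the thresholds, higher, lower), 9, 45 and 19 in the PEA pair and 6, 10 and 43 in the PEO pair, 86 among lines, 20 per-gene calls at promoters and 20 at distal windows, 60 in the Hippo list and 51 in the target list. Of the single values, the block ended 3 calls (the CCN1 promoter and start window in CP70 and the AMOTL2 promoter in PEA2) and added 1 (the CCN1 start window in PEO4). CP70 libraries, with a median of 11 to 20 reads per window, limit what low windows can show.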
